A study of Mus musculus with 8 samples.

Results

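The glycolytic members are the glucose transporter gene Slc2a1 and the enzyme genes Hk1, Hk2, Gpi1, Pfkp, Aldoa, Tpi1, Pgk1, Pgam1 and Ldha, 10 genes in all, followed through every probe set that the array annotation pairs with them. The annotation used pairs 20 probe sets with 9 of these genes alone, out of 22626 probe sets without controls and 12393 named genes. A further probe set is paired with Hk1 and other genes together and was left out, and the expression of Gpi1 was not analysed here. RNA came from lymph node cells of B10.BR mice, an inbred strain, sorted by flow cytometry and hybridised to Affymetrix mouse arrays. The samples were naive mice (3 arrays), immunized mice at day 7 (3 arrays) and immunized mice at day 28 (2 arrays). Neither the immunogen nor the gate, sex or age is stated in the labels. They do not say whether replicates were separate animals, so the spread behind each p-value is that between arrays and may be technical.

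Glycolysis splits glucose into pyruvate in the cytosol and yields a small amount of ATP without oxygen. Resting lymphocytes draw mostly on mitochondrial respiration, whereas dividing lymphocytes take up more glucose and turn much of the pyruvate into lactate, which frees carbon for new membranes, nucleotides and protein. Transcription of many of these genes is driven by the hypoxia-inducible factor HIF-1 and by Myc.

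Deposited values are linear ratios, in which, as inferred from the values themselves, the level of a probe set is divided by its median across the 8 arrays or by a shared floor, and they were analysed as log2. Where the divisor is the median, a log2 ratio of 0 is the usual level of that probe set. This holds for 47.9% of probe sets, among them all 18 tested ones of the members. Elsewhere 0 is the floor, and the usual level lies below it. The level of 1 gene cannot be set against another's. Testing was limited to probe sets whose ratio reached 1 on 2 or more arrays, which kept 13042 in all and 18 of the 20 of the members. The 2 not tested were 1420901_a_at of Hk1, with log2 ratios from -0.88 to -0.41 on the 8 arrays, and 1430634_a_at of Pfkp, with -1.14 to -0.64. "Passed" means an adjusted p under 0.05 in limma, adjusted by Benjamini-Hochberg across all 13042, and errors of differences are SE.

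Array signal varied in ways other than stage. The controls spiked into each hybridisation had a low median log2 ratio on naive replicate 1 (-1.16) and at day 7 (-1.70 to -1.03), and a high one on the other naive arrays (0.85 and 0.66) and at day 28 (1.41 and 0.64). Both day 28 arrays were thus high in spike-in signal and the day 7 arrays low, so day 28 against day 7 has no comparison within a spike-in set. A fit with the spike-in set as a term, which the naive arrays alone inform, gave -3.74 for Tpi1 1435659_a_at in that comparison, as large as without it (-3.71), with a limma adjusted p of 0.191. Of 9 T cell marker genes with a probe set all 9 were tested, and their median log2 ratio overlapped between the groups (-0.20 to 0.53 in naive cells, -0.53 to 0.67 at day 7 and -0.54 to 0.19 at day 28). The median of B cell markers was 2.69 and 2.92 at day 28, against -0.15 to -0.00 at day 7 and -0.21 to -0.10 in naive cells. None of their 10 tested probe sets passed at day 7 against naive. At an unadjusted p under 0.05, 2 were higher and 0 lower there, where 12.4% of all probe sets were higher. These were Cd22 1419768_at (2.82 ± 0.57, limma adjusted p = 0.0757) and Cd74 (1.82 ± 0.51, adjusted p = 0.161), with every day 7 array above every naive array. Cd79b, Blnk, Cd74 and Ms4a1 were among the B cell genes that rose at day 28 against naive. No monocyte, macrophage or erythroid marker passed. The widest difference among them was that of Lyz2, with 4.23 ± 0.84 at day 28 against naive (limma adjusted p = 0.163). At day 7 against naive, Csf1r had 2.43 ± 0.77 by 1419872_at (adjusted p = 0.198). By 1419873_s_at and 1423593_a_at it had 0.24 ± 0.41 and 0.32 ± 0.32.

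At day 7 against naive cells Tpi1 rose. Every day 7 array lay above every naive array for Pgam1 and Pgk1 too, which did not pass, while Pfkp and Hk2 had positive differences with overlapping groups. All 3 probe sets of Tpi1 passed, at about 9.2-fold, and no other member did. At day 28 no member passed against naive cells, and the Tpi1 differences were -0.50 to -0.11 on the log2 scale. Between day 7 and day 28, 1 probe set of Tpi1 fell and passed. The mean log2 ratio over the 18 probe sets was -0.28, -0.04 and -0.44 in naive cells, 1.31, 0.61 and 0.90 at day 7, and -0.60 and 0.01 at day 28, so every day 7 array lay above all the others. Tpi1, with 3 of the 18 probe sets and the largest day 7 differences, weighs heavily in this mean. The median over the 18 was -0.19, 0.03 and -0.25 in naive cells, 0.96, 0.68 and 0.72 at day 7, and -0.55 and -0.06 at day 28. In RNA of a cell mixture, more cells of a type and more RNA per cell cannot be told apart.

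**Figure D1:**
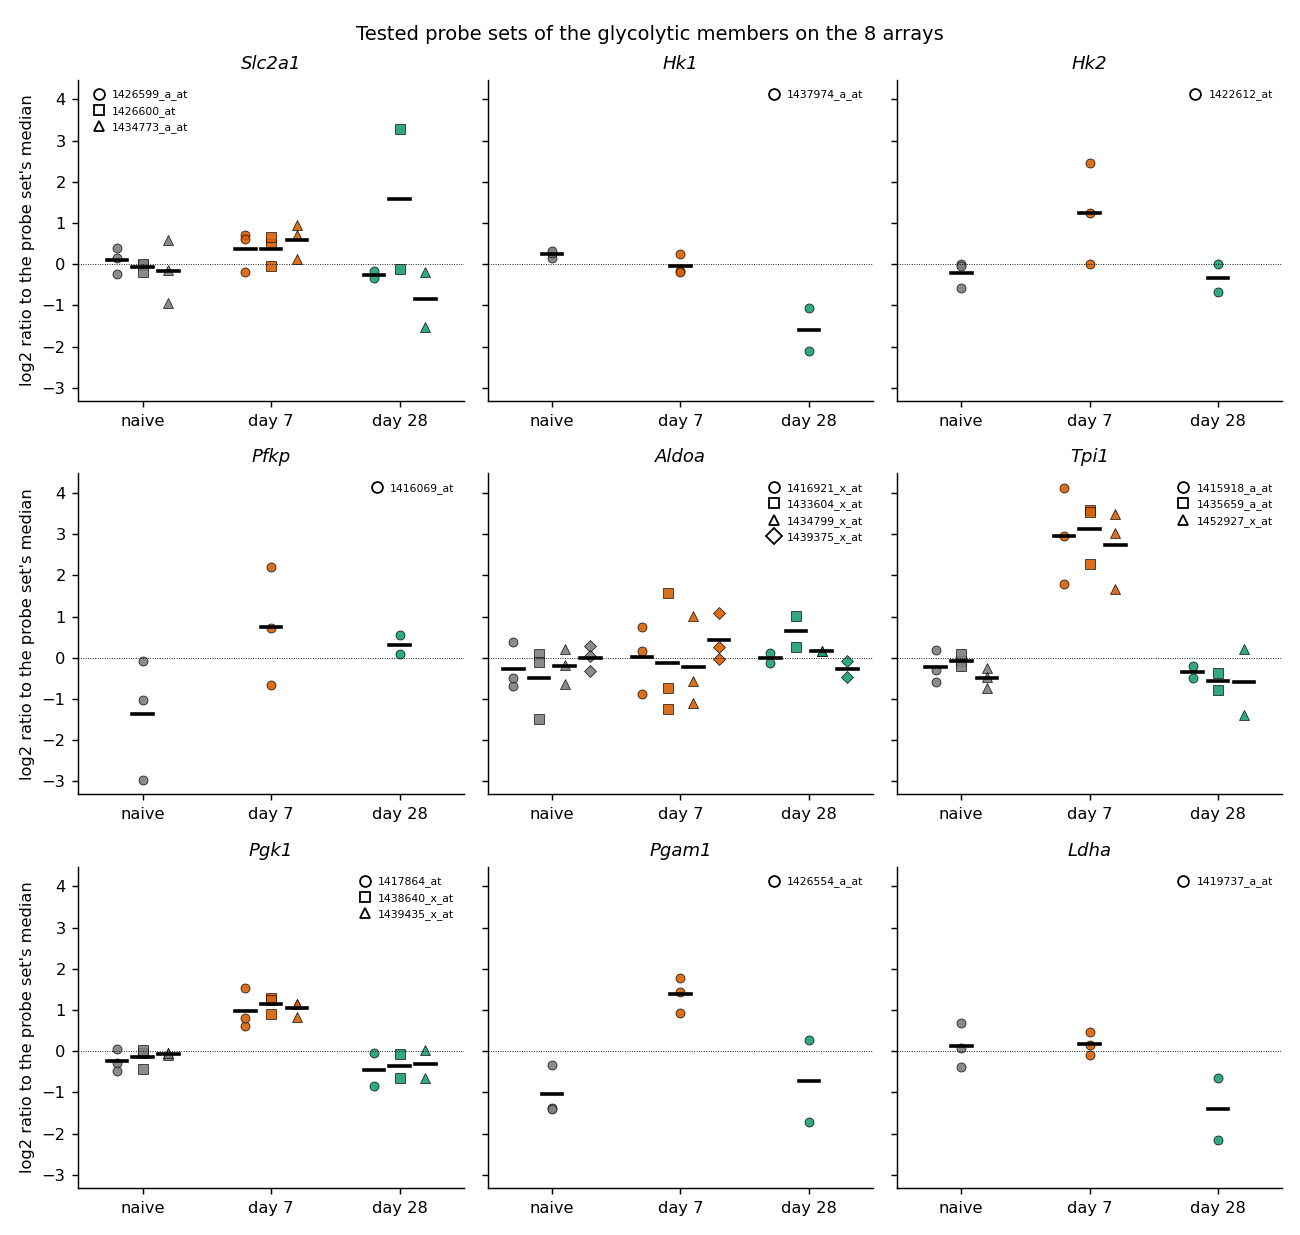
Log2 ratio (vertical axis) of each tested probe set of the 9 members on the 8 arrays, by stage. Each point is an array, marker shapes are probe sets and black bars are group means. Day 7 points stand above the naive and day 28 points for Tpi1, Pgk1 and Pgam1, whereas those of Hk1 and Ldha drop at day 28.

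Tpi1 encodes triosephosphate isomerase (gene ID 21991), which turns dihydroxyacetone phosphate into glyceraldehyde 3-phosphate, so that both parts of the split sugar can run on through the pathway. Its probe set 1435659_a_at had log2 ratios of -0.09, -0.21 and 0.09 in naive cells, 3.58, 2.27 and 3.55 at day 7, and -0.78 and -0.37 at day 28. Probe set 1415918_a_at had -0.58, 0.18 and -0.31, then 4.13, 1.79 and 2.95, then -0.21 and -0.48. Probe set 1452927_x_at had -0.74, -0.24 and -0.46, then 3.48, 1.68 and 3.03, then 0.21 and -1.40. In all 3 the day 7 arrays stood clear of every other array, with replicate 2 the lowest of them. Day 7 minus naive was 3.20 ± 0.40 for 1435659_a_at (9.22-fold, limma adjusted p = 0.015), 3.19 ± 0.56 for 1415918_a_at (9.14-fold, adjusted p = 0.0486) and 3.21 ± 0.57 for 1452927_x_at (9.26-fold, adjusted p = 0.0499). The probe sets gave nearly the same difference, but the last pair sat just inside the threshold. As the mean of its 3 probe sets, tested over 7825 genes, Tpi1 rose by 3.20 ± 0.46 (adjusted p = 0.0214).

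Of the 13042 probe sets, 1.17% passed at day 7 against naive (152, of which 138 rose), and of the 18 member probe sets 3 passed, all from 1 gene. At an unadjusted p under 0.05, 9 of the 18 were higher, from 5 genes, where 12.4% of all probe sets were. The members' median difference was 0.93 and that of all probe sets 0.11. Probe sets of a gene share the transcript, so they are not independent of each other. Without naive replicate 1, the naive array with low spike-in signal, the Tpi1 differences were 3.02, 3.19 and 3.08 (adjusted p = 0.0265, 0.00957 and 0.027, in the order 1415918_a_at, 1435659_a_at and 1452927_x_at). Among the low spike-in arrays alone they were 3.54, 3.23 and 3.47, as large as over all arrays (adjusted p = 0.399, 0.338 and 0.365, with naive replicate 1 as the only naive array and assumed to vary like the day 7 arrays). The number of member probe sets that passed was 0 without naive replicate 2, without naive replicate 3 or without day 7 replicate 3. It was 1 without day 7 replicate 1 or either day 28 array, 3 without day 7 replicate 2 and 5 without naive replicate 1. Without naive replicate 1, 1727 of all 13042 probe sets passed, against 152 over all arrays. In that fit the naive arrays were all high and the day 7 arrays all low in spike-in signal.

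Pgk1 encodes phosphoglycerate kinase (gene ID 18655), which makes the pathway's early ATP in its payoff phase. Its probe set 1438640_x_at had log2 ratios of -0.04, 0.04 and -0.43 in naive cells, 0.90, 1.29 and 1.25 at day 7, and -0.66 and -0.08 at day 28. Probe set 1439435_x_at had -0.05, -0.09 and -0.04, then 0.82, 1.15 and 1.15, then -0.64 and 0.04. Probe set 1417864_at had -0.30, 0.05 and -0.49, then 1.53, 0.61 and 0.80, then -0.84 and -0.05. The day 7 arrays lay above every naive and day 28 array in all 3. Day 7 minus naive was 1.29 ± 0.30, 1.10 ± 0.29 and 1.23 ± 0.37 in that order, or 2.45-, 2.14- and 2.34-fold. None passed (limma adjusted p = 0.106, 0.139 and 0.179), nor did the gene's mean (1.21 ± 0.27, adjusted p = 0.0828). Without naive replicate 1, probe set 1438640_x_at passed (1.34, limma adjusted p = 0.0427), in a fit where 1727 of all 13042 probe sets did.

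Pgam1 encodes phosphoglycerate mutase (gene ID 18648), which moves the phosphate group of phosphoglycerate ahead of the enolase step. Its only probe set, 1426554_a_at, had log2 ratios of -0.35, -1.39 and -1.40 in naive cells, 1.78, 0.92 and 1.43 at day 7, and -1.72 and 0.28 at day 28. Day 7 lay above both other stages, while the day 28 arrays differed from each other by more than the naive arrays did. Day 7 minus naive was 2.42 ± 0.57 (5.36-fold, limma adjusted p = 0.11), and it passed without naive replicate 1 (2.77, adjusted p = 0.0269). In the fit without that array 1727 of all 13042 probe sets passed. Counted over the members, 7 of 18 probe sets, those of Tpi1, Pgk1 and Pgam1, had every day 7 array above every naive array, and 0 had every day 7 array below; over the 13042 probe sets the shares were 13.4% and 8.61%.

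**Figure D2:**
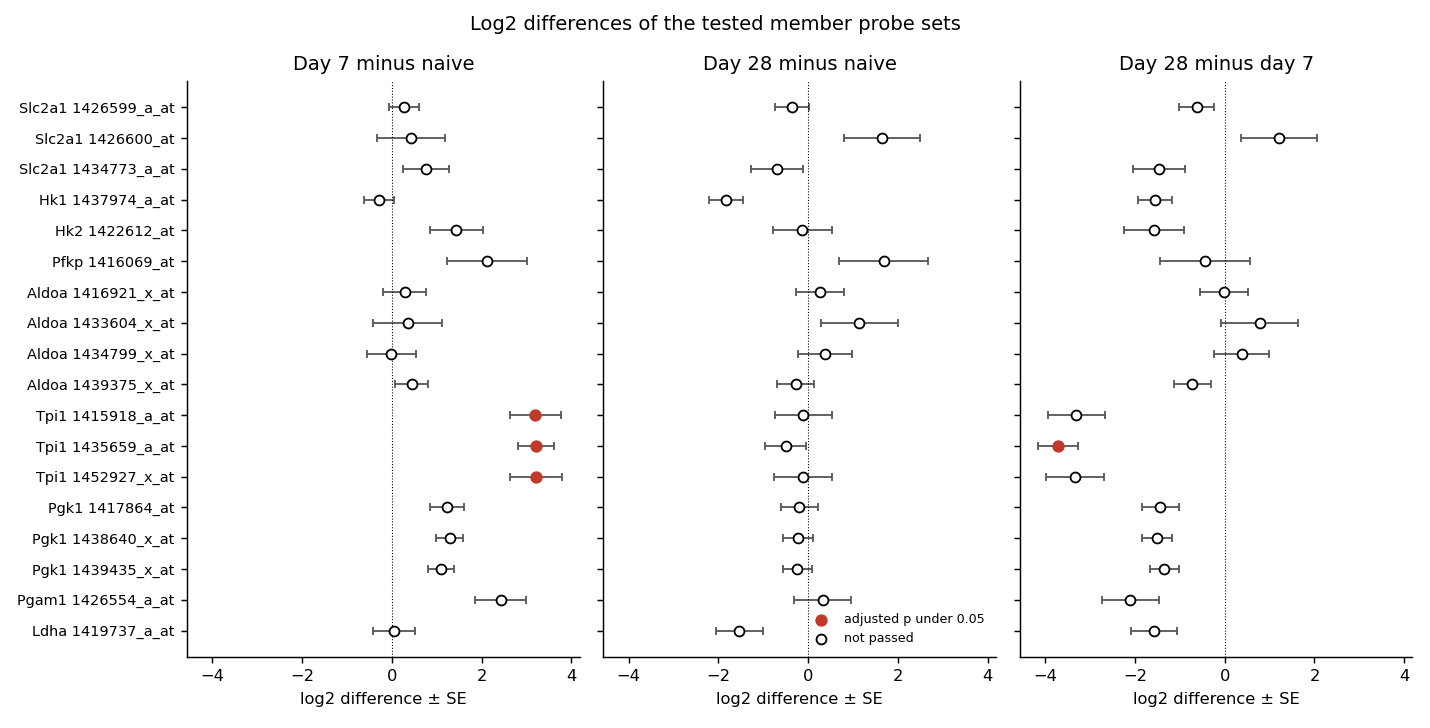
Log2 difference (horizontal axis, with SE) of the 18 tested member probe sets in the 3 comparisons. Filled points passed. The 3 probe sets of Tpi1 stand farthest right at day 7 minus naive and farthest left at day 28 minus day 7, and none passed at day 28 minus naive.

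HIF-1 can bind DNA at ACGTG, the only HIF-1 core searched for here, and the gene for its alpha subunit was also measured. For this reason the upstream sequences of Tpi1, Pgk1 and Pgam1 are shown. In these genes the day 7 arrays lay above every naive array in all tested probe sets. The sequences are the 250 bases before the annotated start, 5′ to 3′ on the gene's strand, from RefSeq on build GRCm38.p6. Capitals mark ACGTG or its reverse complement CACGT.
Tpi1, chr6:124814159-124814408 (minus strand): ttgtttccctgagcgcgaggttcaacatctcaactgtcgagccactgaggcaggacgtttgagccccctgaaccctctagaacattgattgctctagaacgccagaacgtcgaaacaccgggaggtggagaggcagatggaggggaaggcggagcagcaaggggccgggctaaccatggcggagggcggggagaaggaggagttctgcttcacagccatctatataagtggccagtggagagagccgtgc
Pgk1, chrX:106186850-106187099 (plus strand): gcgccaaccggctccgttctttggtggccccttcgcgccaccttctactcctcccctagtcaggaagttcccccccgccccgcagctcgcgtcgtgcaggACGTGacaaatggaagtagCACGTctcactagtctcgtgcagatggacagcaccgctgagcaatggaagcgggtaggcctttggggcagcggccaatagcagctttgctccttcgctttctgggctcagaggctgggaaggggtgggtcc
Pgam1, chr19:41911621-41911870 (plus strand): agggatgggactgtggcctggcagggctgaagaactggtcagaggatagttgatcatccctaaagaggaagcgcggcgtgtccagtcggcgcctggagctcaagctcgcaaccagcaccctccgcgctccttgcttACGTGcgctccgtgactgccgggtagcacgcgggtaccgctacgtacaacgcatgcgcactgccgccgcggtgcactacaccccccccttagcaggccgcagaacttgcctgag
The Tpi1 window held no ACGTG on either strand. The Pgk1 window held 2, with their leading bases 150 and 131 bases before the start, and the Pgam1 window held 1, at 114 bases before it. Among all 32851 RefSeq windows of this length, 16.6% held at least 1. Of the 14 windows listed for the 10 members, 7 did, covering 6 genes, with up to 3 windows for a gene and some of them overlapping. The E-box CACGTG, which contains ACGTG on both strands and is bound by Myc, was in 1 of the 14 windows, that of Ldha, and in 6.0% of all windows. A match describes the letters in a window and is not evidence of binding, and a window without one says nothing about the factor.

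Members at the entry to the pathway were less uniform. Hk2 encodes the inducible hexokinase that traps glucose in the cell as glucose phosphate (gene ID 15277). Its probe set 1422612_at had log2 ratios of 0.02, -0.57 and -0.05 in naive cells, -0.00, 2.45 and 1.25 at day 7, and -0.67 and 0.00 at day 28. Day 7 replicates 2 and 3 were high and replicate 1 was level with the naive arrays. The difference from naive was 1.44 ± 0.59 (2.71-fold, limma adjusted p = 0.309), so it did not pass. Pfkp encodes the platelet form of phosphofructokinase, the committed step of glycolysis (gene ID 56421). Its probe set 1416069_at had -1.02, -0.09 and -2.97 in naive cells, 2.20, -0.66 and 0.72 at day 7, and 0.09 and 0.55 at day 28. The groups overlapped, and here replicate 1 was the highest day 7 array. The difference of 2.11 ± 0.89 (limma adjusted p = 0.313) did not pass.

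Slc2a1 encodes GLUT1, the main glucose transporter of activated lymphocytes (gene ID 20525), and its 3 probe sets parted at day 28. Day 7 minus naive was 0.27 ± 0.34 for 1426599_a_at, 0.43 ± 0.76 for 1426600_at and 0.76 ± 0.52 for 1434773_a_at, all with overlapping groups (limma adjusted p = 0.714, 0.797 and 0.493). Probe set 1426600_at had -0.11 on day 28 replicate 1 but 3.27 on day 28 replicate 2, while the remaining 6 arrays ran from -0.20 to 0.65. The other pair had no such high value, with -0.17 and -0.19 on day 28 replicate 2. Thus 1 array of 1 probe set sets the positive day 28 difference of 1426600_at (1.65 ± 0.85 against naive, adjusted p = 0.899).

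Aldoa encodes aldolase A, which splits fructose bisphosphate (gene ID 11674). Its 4 probe sets all end in _x_at, a suffix, also borne by 1 probe set of Tpi1 and 2 of Pgk1, for probe sets that may bind related transcripts. Day 7 minus naive ran from -0.01 ± 0.54 to 0.44 ± 0.37 (limma adjusted p from 0.571 to 0.995). In each of the 4, day 7 replicate 1 was the highest of the 8 arrays (0.75 to 1.56) and day 7 replicate 2 lay at -1.24 to -0.04. The day 7 group means of Aldoa therefore average arrays that lay far apart. Controls for Gapdh, the enzyme after Tpi1 in the pathway, were also higher on replicate 1 than on replicate 2. Its 3 control probe sets, which were not tested, had 0.83 to 1.88 on day 7 replicate 1 and -1.98 to -0.04 on day 7 replicate 2. All 3 overlapped between day 7 (means -0.04, 0.32 and -0.76) and naive cells (-0.07, -0.49 and -0.86). The 3′ minus the 5′ control was -1.04, -1.18 and 1.17 at day 7, 0.54, 0.17 and 0.57 in naive cells, and -1.09 and 0.03 at day 28. What this spread means for the members was not tested.

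In their tested probe sets, Hk1 and Ldha did not differ between day 7 and naive cells beyond their spread and were lowest at day 28. Hk1 encodes the hexokinase found in most tissues (gene ID 15275). Its probe set 1437974_a_at had log2 ratios of 0.15, 0.28 and 0.31 in naive cells, -0.17, 0.25 and -0.18 at day 7, and -2.10 and -1.07 at day 28. Both day 28 arrays lay below all 6 others. Day 28 minus naive was -1.84 ± 0.38 (limma adjusted p = 0.18) and day 28 minus day 7 was -1.55 ± 0.38 (adjusted p = 0.103). The untested Hk1 probe set 1420901_a_at did not show this fall. Its day 28 arrays had -0.86 and -0.70, within the range of the other arrays. Ldha encodes the muscle-type chain of lactate dehydrogenase, which reduces pyruvate to lactate (gene ID 16828). Its probe set 1419737_a_at had 0.08, 0.68 and -0.38 in naive cells, 0.46, 0.15 and -0.09 at day 7, and -2.15 and -0.66 at day 28. Day 28 minus naive was -1.53 ± 0.52 (limma adjusted p = 0.6), -2.28 without day 28 replicate 2 and -0.79 without day 28 replicate 1. Its day 7 minus naive difference was 0.05 ± 0.46 (adjusted p = 0.968).

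At day 28 against naive, 0 of 18 member probe sets passed in limma, where 0.322% of the 13042 did. At an unadjusted p under 0.05 there were 2, Hk1 and Ldha, both lower, against 6.34% of all probe sets. Every day 28 array lay below every naive array for 3 member probe sets and above for 2, where the shares over all were 9.88% and 7.76%. The members' median log2 difference was -0.17 and that of all probe sets -0.05; the members' median was 0.08 without day 28 replicate 1 and -0.46 without day 28 replicate 2, so its sign rests on 1 array. For Tpi1 the day 28 minus naive differences were -0.11 ± 0.63, -0.50 ± 0.45 and -0.12 ± 0.64 (limma adjusted p = 0.998 each), and the B cell signal given above moved with this group. The part of B cells in these values was not tested.

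At day 28 against day 7, 1 member probe set passed, where 1.3% of the 13042 did. Tpi1 1435659_a_at fell by 3.71 on the log2 scale (SE 0.45, 13.1-fold lower, limma adjusted p = 0.0135). The other Tpi1 probe sets had -3.30 ± 0.63 (adjusted p = 0.057) and -3.33 ± 0.64 (adjusted p = 0.0573) and did not pass, while the gene's mean did (-3.45 ± 0.52, adjusted p = 0.0216). Without day 7 replicate 3 or either day 28 array no member probe set passed. Without day 7 replicate 2 there were 2, and without naive replicate 1 there were 4. In the fit without naive replicate 1, 810 of all 13042 probe sets passed, against 170 over all arrays. Day 28 minus day 7 was -2.10 ± 0.64 for Pgam1 (adjusted p = 0.167) and -1.51 ± 0.33, -1.34 ± 0.32 and -1.43 ± 0.41 for the Pgk1 probe sets 1438640_x_at, 1439435_x_at and 1417864_at (adjusted p = 0.0807, 0.0996 and 0.152). Both day 28 arrays lay below all day 7 arrays for 11 of 18 member probe sets, from 7 genes, and above them for 0, where the shares over all probe sets were 29.7% and 15.2%. The members' median was -1.44, and -0.92 without day 28 replicate 1, against a median of -0.16 over all probe sets. At an unadjusted p under 0.05, 11 of the 18 probe sets were lower, where 13.1% of all probe sets were. This comparison uses the same day 7 arrays as that with naive cells.

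None of the other glycolysis genes passed. Of 21 listed, 10 genes had tested probe sets, 17 in all, and 0 passed in limma in any comparison; at an unadjusted p under 0.05, 1 was higher and 4 were lower at day 7 against naive, 1 was higher and 4 were lower at day 28 against naive, and 1 was higher and 1 lower at day 28 against day 7. Over all probe sets the shares that were lower were 3.08% at day 7 and 3.21% at day 28, both against naive, and 3 of the 4 lower ones at day 7 and all 4 at day 28 were probe sets of Ldhb. Eno3, the muscle enolase gene, had the list's smallest p at day 28 against day 7 and is named after its values were seen: it had 1.68 ± 0.36 there (limma adjusted p = 0.0724), the opposite sign to Tpi1. Ldhb encodes the heart-type chain of lactate dehydrogenase, which favours the return of lactate to pyruvate. Its probe set 1455235_x_at had log2 ratios of 0.83, 1.20 and 1.90 in naive cells, -0.34, -1.11 and 0.28 at day 7, and -1.80 and -0.88 at day 28. Every naive array lay above every later array in this probe set. Day 28 minus naive was -2.65 ± 0.53 (limma adjusted p = 0.172), and day 7 minus naive was -1.70 ± 0.47 (adjusted p = 0.161). In 3 of its 4 probe sets the day 7 arrays lay below all naive arrays, with differences of -1.97 to -1.70, whereas 1434499_a_at had -0.27 ± 0.59. Pkm, the pyruvate kinase gene, had -0.64, 2.31 and 1.82 in naive cells, 0.72, -1.33 and -0.30 at day 7, and -1.99 and 0.24 at day 28. Its groups overlapped (day 28 minus naive -2.04 ± 1.05, limma adjusted p = 0.899). Eno1 was not analysed here.

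Among 14 genes listed as regulators of glycolysis, 10 probe sets of 7 genes were tested. At day 7 against naive 1 rose, 0 fell and 9 did not pass, where 1.06% of all probe sets rose. Egln3 encodes an oxygen-sensing prolyl hydroxylase that marks HIF alpha subunits for destruction and is itself a HIF target. Its probe set 1418649_at had log2 ratios of -0.81, -0.52 and -0.75 in naive cells, 3.76, 2.37 and 2.56 at day 7, and -0.42 and -0.49 at day 28. As for Tpi1, all day 7 arrays lay far above the rest. Egln3 rose by 3.59 ± 0.40 at day 7 against naive (12.0-fold, limma adjusted p = 0.00959) and fell by 3.35 on the log2 scale at day 28 against day 7 (SE 0.44, adjusted p = 0.0183). Its usual level lay below the shared floor, so a filter for a median ratio of 1 left it out. Only its day 7 arrays reached a ratio of 1, so it met the filter used here through them alone. With no filter, over 22626 probe sets, the limma adjusted p was 0.0275 for the rise and 0.0382 for the fall. Neither the rise nor the fall passed with the replicate number as a block (limma adjusted p = 0.0681 and 0.0918). The same held with the spike-in set as a term (adjusted p = 0.0986 and 0.194). Without naive replicate 1 the day 7 rise was 3.53 (limma adjusted p = 0.00741), in a fit where 1727 of all 13042 probe sets passed. Without naive replicate 2, naive replicate 3 or day 7 replicate 3 the adjusted p was 0.0597, 0.0558 and 0.0572. Without day 7 replicate 3, day 28 replicate 1 or day 28 replicate 2 the adjusted p of the day 28 fall was 0.083, 0.111 and 0.0908.

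**Figure D3:**
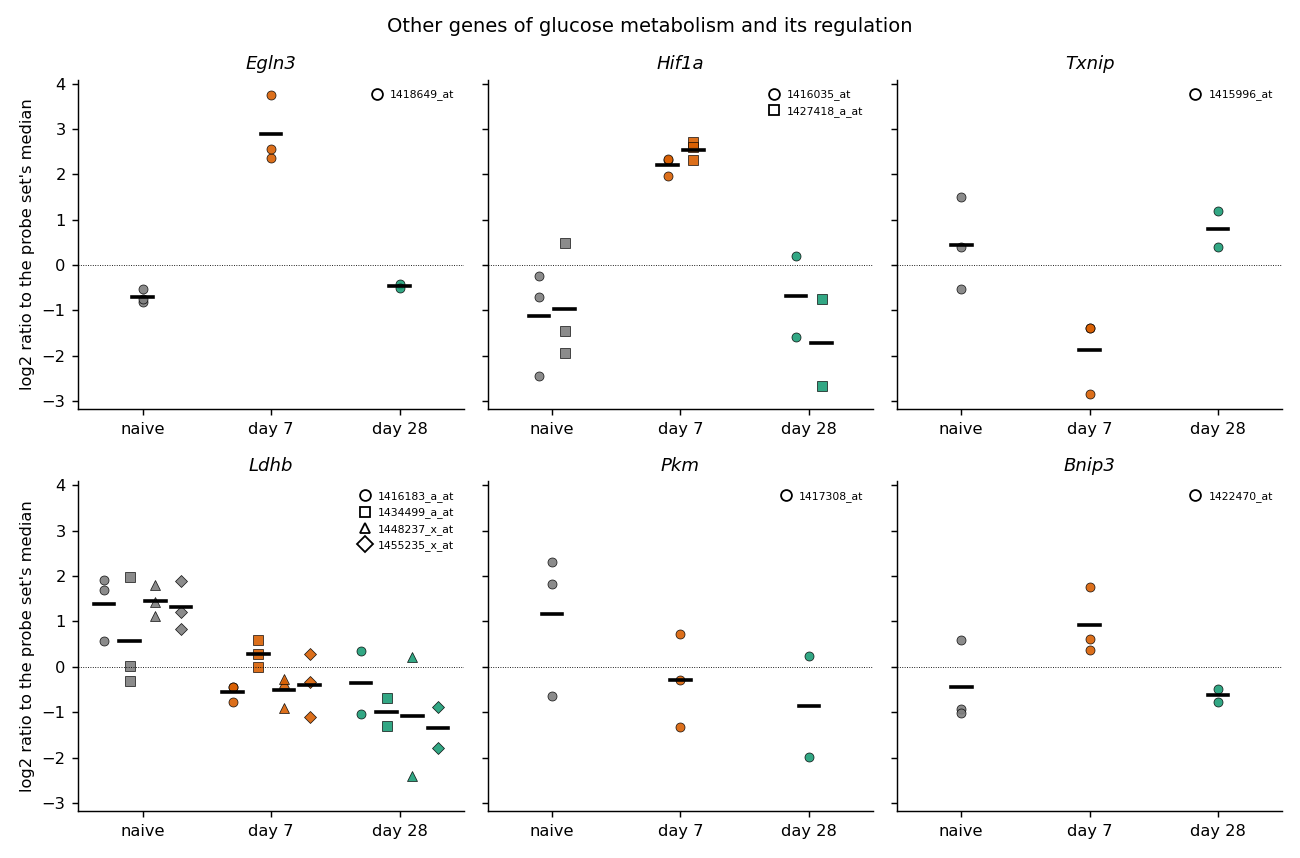
Log2 ratio (vertical axis) on the 8 arrays, by stage, of tested probe sets of Egln3, Hif1a, Txnip, Ldhb, Pkm and Bnip3. Each point is an array, shapes are probe sets and black bars are group means. Egln3 and Hif1a stand highest and Txnip lowest at day 7, while the 4 Ldhb probe sets have their highest group mean in naive cells.

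Hif1a encodes the oxygen-regulated subunit of HIF-1. Its probe set 1427418_a_at had log2 ratios of 0.49, -1.94 and -1.46 in naive cells, 2.72, 2.60 and 2.32 at day 7, and -2.66 and -0.76 at day 28. The day 7 arrays agreed closely and lay above all others. Day 7 minus naive was 3.52 ± 0.71 for this probe set and 3.34 ± 0.66 for 1416035_at, neither of which passed (limma adjusted p = 0.0753 and 0.0685). Day 28 minus day 7 was -4.26 ± 0.79 and -2.90 ± 0.73 (adjusted p = 0.0535 and 0.113). The Hif1a probe sets 1431981_at and 1448183_a_at were not tested, and in both the day 7 and naive arrays overlapped. Their mean log2 ratios were -0.998 and -0.207 at day 7, against -0.882 and -0.462 in naive cells. Myc, named here after its values were seen, did not follow the tested Hif1a probe sets. Its probe set 1424942_a_at had 0.84, -1.03 and 0.24 in naive cells. It had -0.41, -0.94 and -0.29 at day 7, and 1.07 and 0.95 at day 28. Both day 28 arrays were the highest, and neither day 7 minus naive (-0.56 ± 0.48, limma adjusted p = 0.586) nor day 28 minus day 7 (1.55 ± 0.54, adjusted p = 0.21) passed. Txnip encodes an arrestin-like protein that lowers glucose uptake by withdrawing GLUT1 from the membrane. Txnip ran against Hif1a, with -0.54, 1.50 and 0.39 in naive cells, -1.40, -2.85 and -1.38 at day 7, and 1.20 and 0.41 at day 28. The day 7 arrays lay below all others, but neither day 7 minus naive (-2.33 ± 0.62, limma adjusted p = 0.145) nor day 28 minus day 7 (2.67 ± 0.69, adjusted p = 0.12) passed.

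Further HIF targets and the branches off glycolysis held no gene past the threshold. Of 8 probe sets of other HIF targets 0 passed in limma in any comparison, and at an unadjusted p under 0.05 there was 1 higher at day 7 against naive and 1 lower at day 28 against day 7. Both were Bnip3, a mitophagy receptor, with 1.37 ± 0.54 at day 7 against naive (adjusted p = 0.293) and -1.54 ± 0.61 at day 28 against day 7 (adjusted p = 0.263). Kdm3a, a histone demethylase, had 1.20 ± 0.60 at day 28 against day 7 (adjusted p = 0.372). The list's median day 7 minus naive difference was -0.42, below that of all probe sets at 0.11. Of 10 probe sets for the entry of pyruvate into mitochondria 0 passed (2 higher and 1 lower at an unadjusted p under 0.05 at day 7 against naive). Pdk1, a kinase that shuts pyruvate dehydrogenase, had -0.43 ± 1.01 by 1423747_a_at and -1.50 ± 0.45 by 1423748_at (limma adjusted p = 0.852 and 0.178). Pdk3, a kinase of the same family, had 1.44 ± 0.48 (adjusted p = 0.222). Of 11 probe sets of the pentose phosphate pathway, which makes ribose and NADPH from glucose phosphate, 0 passed. At an unadjusted p under 0.05, 1 was higher at day 7 against naive and 5 were lower at day 28 against day 7, and the list's median was 0.52 and -1.26 in these comparisons. The widest differences in the list were those of Pgd, an NADPH-making dehydrogenase (-1.81 ± 0.67 by 1438627_x_at, adjusted p = 0.238), and Rpia, a ribose phosphate isomerase (-1.56 ± 0.88, adjusted p = 0.427), both at day 28 against day 7. Of gluconeogenesis 2 probe sets were tested and 0 passed, with 0 at an unadjusted p under 0.05. They were Pck1 and Pck2, the cytosolic and mitochondrial PEP carboxykinases, whose widest differences were -0.51 at day 7 against naive and 0.50 at day 28 against day 7. Over all probe sets, 12.4% were higher and 3.08% lower at an unadjusted p under 0.05 at day 7 against naive. At day 28 against day 7, 13.1% were lower.

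Mitosis genes had the same array order in part. Their median log2 ratio was -0.70 to -0.32 in naive cells, 1.30 to 1.88 at day 7 and -0.19 and -0.17 at day 28. Of their 17 tested probe sets 7 rose at day 7 against naive, where 1.06% of all probe sets did. The day 7 arrays were highest in the members' mean and in the mitosis median. Among them replicate 1 was highest in the first and lowest in the second. Single genes departed from this order. Replicate 1 was the lowest day 7 array for Hk2, Pgk1 1438640_x_at and 1439435_x_at, and Slc2a1 1426599_a_at and 1434773_a_at. For the mitosis gene Cdk1 replicate 2 was the lowest. The part of dividing cells in the glycolytic values was not tested. The named genes outside the list whose profile over the 8 arrays was most like the members' mean were Dap, Nsmf, Lysmd2, Psmd5 and Lgalsl, with Pearson r from 0.97 to 0.98. These profiles share arrays, which fall into day 7 and the rest, so the values describe likeness only. Of the 5, Lgalsl, a galectin-like gene, passed at day 7 against naive (3.26 ± 0.39, limma adjusted p = 0.0126). Its ratio reached 1 on the day 7 arrays only, so it met the filter through them alone.

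**Figure D4:**
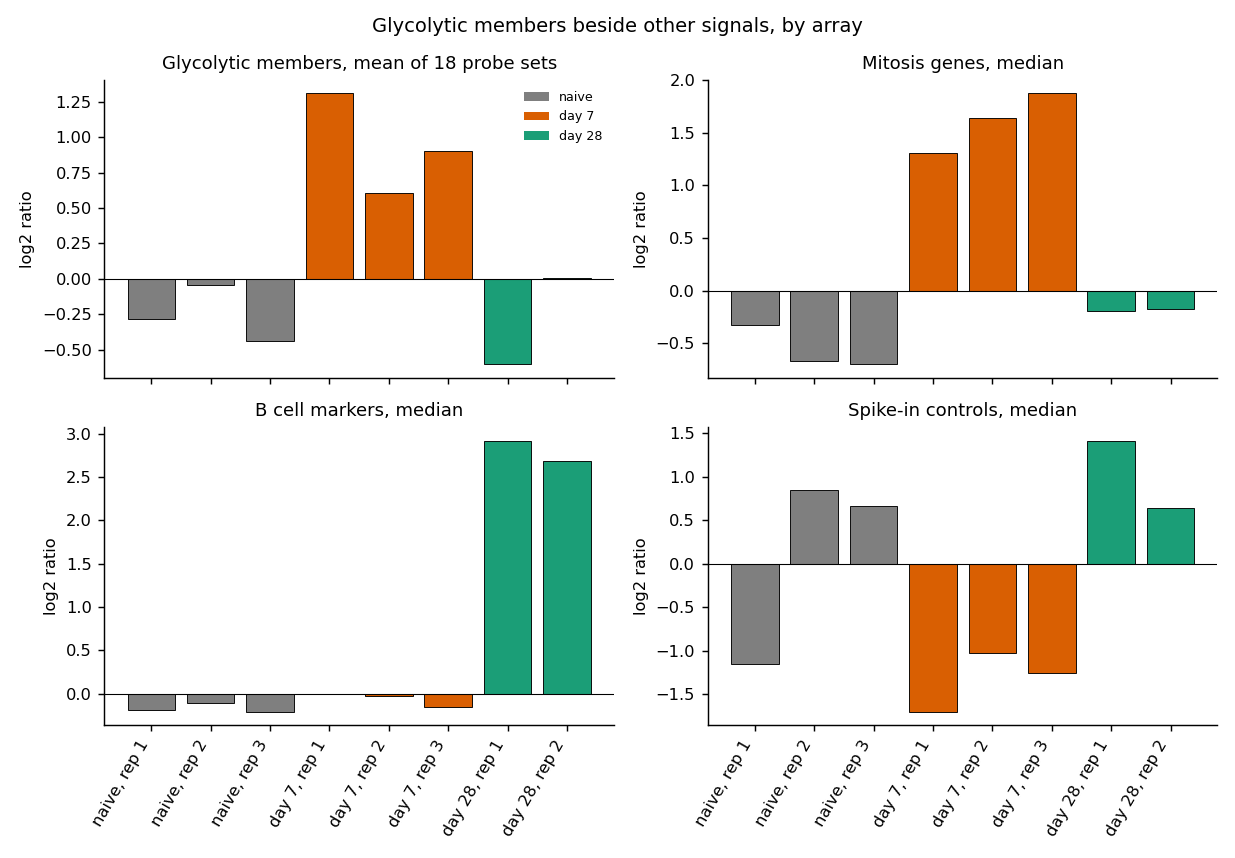
Log2 ratio (vertical axis) on each array of the mean of the 18 glycolytic probe sets and of the medians of mitosis genes, B cell markers and spike-in controls; bars are single arrays, coloured by stage. The glycolytic and mitosis bars are highest at day 7, the B cell bars at day 28, and the spike-in bars are low on naive replicate 1 and day 7.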

How the data were processed

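GCRMA is the named tool, without a version, per the submitters' processing notes. The authors deposited 1 linear ratio per probe set and array. The divisor, a median across the 8 arrays or a floor, was inferred here: 47.9% of probe sets have a median ratio of 1 within 0.0015 and none has a higher one. The table holds 22690 probe sets, 64 of them controls, and the median ratio per array runs from 0.723 to 0.831. The number of arrays limits the precision.

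Log2 ratios were fitted with limma 3.58.1 in R 4.3.3, with 1 mean per group over the 8 arrays and empirical Bayes moderation, two-sided, over 13042 probe sets. The fit was tested on simulated data. Every member probe set is accounted for. Outside the members, genes that passed were named (up to 4 per list and comparison), with up to 2 per list that did not, those of largest difference. This rule was not carried through for the cell marker and mitosis lists, of which only some genes are named. Gapdh, Eno1 and Pkm were named always, and the 5 genes most alike. Members, lists, filter and tests were chosen with earlier results of these data known. The expression of some listed genes, Eno1 and Gpi1 among them, was not analysed here. Alternatives were other filters and normalizations, a pseudocount of 0.1, blocks, subsets of arrays, gene means and leaving out each array.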

Additional observations from a re-analysis of the deposited data

Results flagged for a closer look

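The day 7 and day 28 effects against naive cells differed for 1 member probe set, by the limma comparison of day 28 with day 7, which tests that difference itself: Tpi1 1435659_a_at had -3.71 on the log2 scale (adjusted p = 0.0135). Egln3 1418649_at, outside the members, had -3.35 in the same test (adjusted p = 0.0183), and it met the filter through its day 7 arrays alone. Both comparisons with naive cells use the same naive arrays. All day 7 arrays were low and both day 28 arrays high in spike-in signal, and the B cell median was highest at day 28. With the spike-in set as a term, 0 of the 13042 probe sets passed at day 28 against day 7. Tpi1 1435659_a_at then had a limma adjusted p of 0.191.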

How the results depend on the processing

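No difference of a member or of Egln3 that passed, in the analysis given above or under an alternative, changed sign between them. At day 7 against naive, the number of member probe sets that passed was 1 with no filter, with the stricter filter (a median of 1), with quantile normalization, with only the 2 groups compared and as gene means, and 0 with the replicate block, with a spike-in term and within the low spike-in arrays. Leaving out an array gave 0 to 5. At day 28 against day 7 it was 0 with the replicate block and with the spike-in term, and 0 to 4 with an array left out; at day 28 against naive it was 0 in every setting. Over all probe sets, those that passed at day 7 against naive numbered 94 with no filter, 76 with the stricter filter, 16 with the replicate block, 14 with the spike-in term, 0 within the low spike-in arrays and 68 with only the 2 groups compared (17 to 1727 with an array left out, against 152). At day 28 against naive they numbered 26 with the stricter filter, 9 with the replicate block, and 0 within the high spike-in arrays or with only the 2 groups compared (2 to 57, against 42). At day 28 against day 7 they numbered 62 with the stricter filter, 15 with the replicate block, 0 with the spike-in term and 591 with only the 2 groups compared (25 to 810, against 170). The members' median at day 7 against naive was 0.60 with no filter, 1.14 with the spike-in term or within the low spike-in arrays and 1.21 as gene means (0.83 to 1.12 with an array left out), and at day 28 against day 7 it was -1.82 to -0.92 with an array left out. Fewer arrays or probe sets enter some of these fits; otherwise the cause was not tested. Deviations of same-numbered arrays from their group means had correlations of -0.23, -0.36 and 0.10 between naive and day 7. They were 0.115 and 0.125 between naive and day 28, and 0.171 and 0.0935 between day 7 and day 28. With 2 or 3 arrays in a group, these values cannot show whether the replicate numbers pair the arrays. Signal over background cannot be read from ratios, so what dim probe sets limit is unknown.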
